A study of Homo sapiens with 18 samples.

Results

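The collagen gene family was taken as every gene of the deposited tables whose symbol is COL, a number, A and a number, with COL17A1 left out, which gave 43 of 42141 genes. Membership went by name and not by any measured value, but the family was chosen with earlier results of these data known. RNA sequencing had been done on MCF-10A.B2 cells, a human mammary epithelial line that carries a HER2 receptor which a small molecule, the B/B homodimerizer, brings together in pairs. The cells were WT or JNKKO, a knockout in the JNK stress kinase pathway, and had been grown as acini, hollow spheres of epithelium, on growth factor reduced Matrigel. All 6 groups were harvested at 21 days, after 7 days of growth and 14 days in which EGF was replaced by ethanol (control), by the homodimerizer, or by the homodimerizer with TGF-β1. Each group had 3 libraries: WT control, WT dimerizer, WT dimerizer with TGF-β1, JNKKO control, JNKKO dimerizer and JNKKO dimerizer with TGF-β1. TGF-β1 was given only with the dimerizer, so its effect without HER2 pairing was not measured. The labels do not say whether the JNKKO cells were 1 clone, so an effect of the knockout and a difference between cell lines cannot be told apart. Separate cultures are not named for the 3 libraries of a group either, so a p-value here reflects library spread alone, which may be technical.

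Collagens are extracellular proteins whose chains wind in threes into a triple helix. Type IV chains build the sheet-like network of the basement membrane on which mammary epithelium rests, and type VII collagen forms the anchoring fibrils that tie that sheet to the tissue below. Fibrillar collagens such as types I and V make the fibres of connective tissue, FACIT collagens (fibril-associated collagens with interrupted triple helices) sit on those fibres or beside the basement membrane, and type VI forms beaded filaments. TGF-β1 is a textbook inducer of collagen genes, and JNK is known for phosphorylating c-Jun, a subunit of the AP-1 transcription factor.

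The 6 type IV genes lie in 3 pairs that are transcribed away from each other. By RefSeq start sites (GRCh38.p14), COL4A1 and COL4A2 on chromosome 13 start 126 bases apart, COL4A4 and COL4A3 on chromosome 2 start 418 bases apart, and COL4A6 and COL4A5 on chromosome X start 379 bases apart. RefSeq windows of 300 bases, 250 before and 50 after a start, were found for 31 of the 43 genes, 43 windows in all. COL1A1, COL2A1, COL5A2, COL6A1 and COL8A1 are among the 12 genes without a window. The median GC content of the 43 collagen windows was 64.0%, against 58.7% over 35116 windows of all genes. Upstream sequence is shown for genes that stand for the main patterns below. COL4A1-COL4A2 (chr13:110307158-110307187, plus strand) is a stretch of 30 bases, inside an annotated exon of COL4A1, between the starts of a pair that rose with TGF-β1 in both genotypes. COL7A1 (chr3:48595330-48595579, minus strand) and COL12A1 (chr6:75206054-75206303, minus strand) also rose, COL4A5 (chrX:108439588-108439837, plus strand) fell slightly, and COL27A1 (chr9:114155287-114155536, plus strand) moved in opposite directions with the dimerizer in the 2 genotypes. Each of these 4 is the 250 bases before a RefSeq start site. Letters in capitals mark matches, on either strand, to the box CCAAT, to GGGCGG, which SP1 binds, to CAGAC, which SMAD proteins bind, or to TATAAA, the core of a promoter element.
COL4A1-COL4A2: gagcgcggcgggccgagctccCCAATttgt
COL7A1: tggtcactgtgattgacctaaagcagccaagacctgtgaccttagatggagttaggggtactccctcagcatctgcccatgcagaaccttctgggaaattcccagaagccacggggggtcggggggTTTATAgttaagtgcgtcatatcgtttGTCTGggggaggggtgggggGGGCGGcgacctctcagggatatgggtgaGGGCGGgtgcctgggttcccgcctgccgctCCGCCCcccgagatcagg
COL12A1: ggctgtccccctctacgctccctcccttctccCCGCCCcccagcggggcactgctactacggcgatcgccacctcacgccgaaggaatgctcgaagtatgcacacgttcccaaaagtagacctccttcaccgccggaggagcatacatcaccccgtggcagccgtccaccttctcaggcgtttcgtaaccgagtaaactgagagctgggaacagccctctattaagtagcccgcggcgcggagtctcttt
COL4A5: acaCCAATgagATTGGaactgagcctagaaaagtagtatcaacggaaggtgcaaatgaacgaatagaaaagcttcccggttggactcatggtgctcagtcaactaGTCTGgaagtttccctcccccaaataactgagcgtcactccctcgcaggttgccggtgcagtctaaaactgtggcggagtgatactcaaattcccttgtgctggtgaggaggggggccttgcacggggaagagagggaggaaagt
COL27A1: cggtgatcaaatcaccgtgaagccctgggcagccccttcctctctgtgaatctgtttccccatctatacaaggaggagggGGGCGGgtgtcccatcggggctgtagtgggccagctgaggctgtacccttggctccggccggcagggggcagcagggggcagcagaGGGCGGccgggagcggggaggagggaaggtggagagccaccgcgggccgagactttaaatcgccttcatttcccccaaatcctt

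The same letters were searched on both strands in all windows. GGGCGG was found in 24 of the 43 collagen windows (55.8%) and in 45% of all windows. CAGAC was found in 17 collagen windows (39.5%) and in 45.3% of all, CCAAT in 13 (30.2%) and 34.6%, and TATAAA in 7 (16.3%) and 11.5%. TGANTCA, the core site of AP-1, was found in 1 collagen window (2.33%), that of COL10A1, and in 7.71% of all windows. COL10A1 had too few counts to be tested, and the collagen windows include those of other such genes. A match is a description of the letters only, and the windows hold no distant enhancer.

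The libraries held 24243537 to 34499651 expected counts, and levels were compared between libraries as CPM, counts scaled to a total of 1000000. MAPK9 (JNK2) was at 57.1 to 68.4 CPM over the 9 WT libraries and at 42.1 to 53.9 CPM over the 9 JNKKO libraries, which did not overlap. MAPK8 (JNK1) overlapped at 22.8 to 35.1 and 25.5 to 34.9 CPM, as did MAPK10 (JNK3). The labels do not give the part of the gene that was disrupted, so RNA levels check the knockout only in part. Replicate 3 of WT dimerizer with TGF-β1 carries a WT title and a knockout genotype tag. It was grouped by title. All libraries of its group were at 64.7 to 68.4 CPM for MAPK9, above every JNKKO library. For COL6A1 they were at 29.3 to 37.0 CPM, against 216 to 231 in JNKKO with the same treatment. Which label is right was not tested further. Without that replicate 3, 5 member results lost their call. They were the COL6A2 rise with TGF-β1 in WT and the TGF-β1 interaction of COL4A6. The others were the COL5A3, COL6A2 and COL7A1 differences between the genotypes with TGF-β1. Transcripts encoded in mitochondria made up 15.2% of counts in WT control and 5.38% in JNKKO dimerizer with TGF-β1, with 8.90% to 10.8% in the other 4 groups, and with these genes left out 195 of 197 called member results kept their call. All 8 epithelial marker genes reached 1 TPM (a level corrected for gene length and scaled to the same total) in every group.

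The collagen transcripts were concentrated in few genes. Of the 43, 25 passed the filter on low counts and were tested, 18 reached a group mean of 5 CPM and 10 reached a group mean of 10 TPM. The other 18 genes had 373 counts together over all 18 libraries, no more than 75 counts for any gene and no more than 11 in any library. COL9A1 and COL19A1 had no count in any library, which allows up to 3 counts, or 0.0843 to 0.128 CPM, in each. COL3A1, a fibrillar collagen of stroma, had 6 counts in all, and COL5A1 had 23. COL1A2, whose chain normally joins that of COL1A1 in type I collagen, had 10 counts in all, while COL1A1 was among the most abundant members.

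Summed over the family, collagen transcripts stood at 198 ± 4.66 TPM (SD, n = 3) in WT control, 308 ± 9.42 with the dimerizer added and 813 ± 27.5 with TGF-β1 as well. In JNKKO the sums were 283 ± 6.46, 336 ± 15.1 and 828 ± 42.5 TPM in the same order of treatments. As a share of all counts the family ran from 0.110% in WT control to 0.414% in the WT libraries given TGF-β1. The 6 type IV genes made up 44.7% of the family's TPM in WT control and 39.6% in JNKKO dimerizer with TGF-β1, and COL7A1 alone 28.7% and 37.1%. FACIT genes were 5.40% of the family in WT control, 19.2% in JNKKO control and 20.7% in WT dimerizer. Type VI genes made up 12.5% in JNKKO dimerizer with TGF-β1, against 2.67% in the WT group given the same treatment. In whole cultures, fewer cells of a kind and less RNA per cell cannot be told apart.

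**Figure D1:**
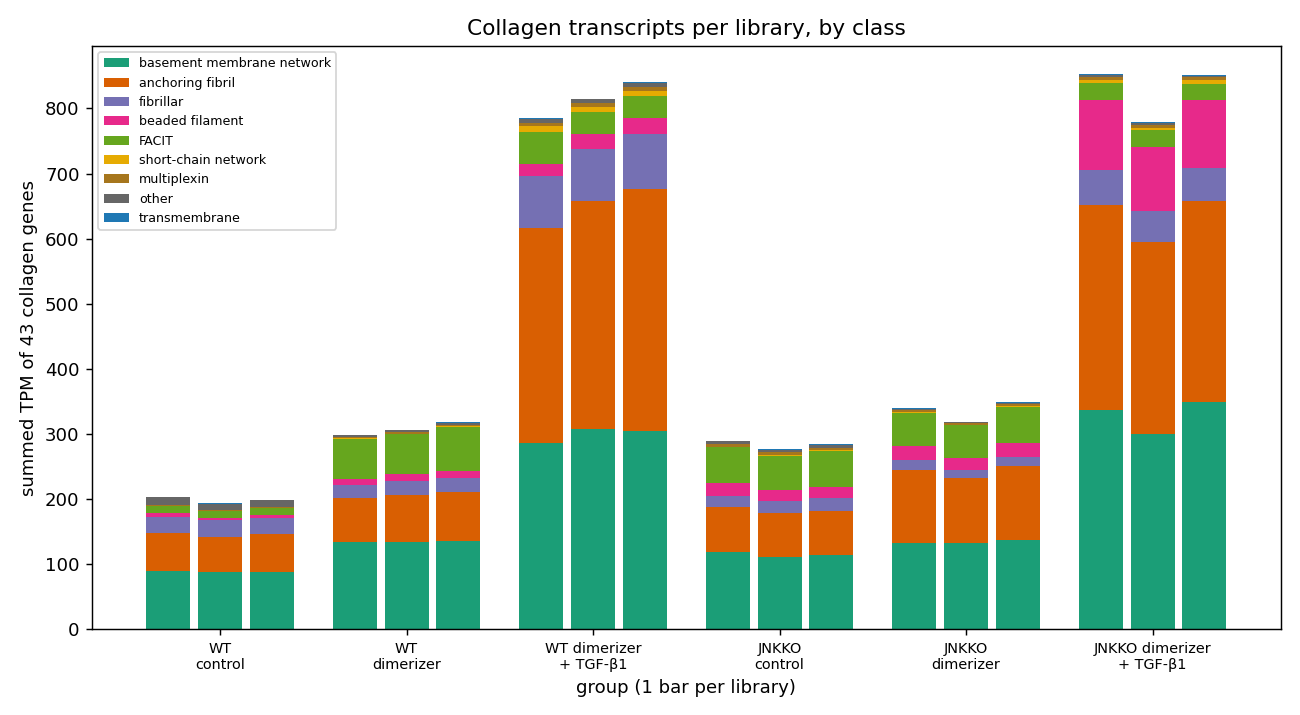
Summed TPM of the 43 collagen genes (y axis) in each of the 18 libraries (1 bar each, grouped by genotype and treatment), stacked by collagen class. The 6 libraries given TGF-β1 stand between 779 and 853 TPM and the other 12 between 193 and 348 TPM, and the beaded filament part is widest in JNKKO dimerizer with TGF-β1.

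Dimerizer against control asks what pairing of HER2 does to the family within a genotype. In WT, 14 of the 25 tested collagen genes were higher and 4 lower (edgeR's quasi-likelihood F test with an adjusted p under 0.05, Benjamini-Hochberg, over 16911 genes). Of all genes tested, 30.3% were higher and 25.6% lower, 55.9% in all. In JNKKO, 8 collagen genes were higher and 8 lower, against 22.5% and 17.9% of all genes, 40.4% in all. The family's median log2 difference was 0.55 in WT and -0.16 in JNKKO, beside medians over all genes of 0.03 and 0.01. COL4A1, COL4A2, COL4A5, COL4A6 and COL7A1 rose in both genotypes, and COL1A1 and COL28A1 fell in both. COL5A2, COL5A3, COL11A2, COL18A1 and COL27A1 rose in WT and fell in JNKKO.

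Dimerizer with TGF-β1 against dimerizer alone asks what TGF-β1 adds in cells with paired HER2. In WT, 10 of the 25 were higher and 9 lower, against 33.4% and 31.8% of all genes, 65.2% in all. In JNKKO, 13 were higher and 6 lower, against 30.5% and 30.3%, 60.7% in all. The median log2 difference of the family was 0.00 in WT and 0.64 in JNKKO. COL1A1, COL4A1, COL4A2, COL6A2, COL6A3, COL7A1, COL8A1, COL12A1 and COL28A1 rose in both genotypes. COL2A1, COL4A5, COL4A6, COL5A3 and COL16A1 fell in both, and COL11A2 fell in WT and rose in JNKKO. With limma on log2(TPM + 1), where TPM sets another total than the scaled counts, the median difference of all genes was 0.11 in WT and 0.16 in JNKKO. The JNKKO split was then 16 higher and 4 lower, where 8046 of all 16911 genes were higher and 2631 lower. The WT split was 11 and 8, where 7150 of all genes were higher and 3664 lower. Among the 19 members that reached 1 TPM in at least 3 libraries it was 11 and 6. With that filter 6768 of 14904 genes were higher and 3292 lower. Against control, dimerizer with TGF-β1 had 15 collagen genes higher and 5 lower in WT (31.3% and 30.5% of all genes, 61.8% in all). In JNKKO it had 10 higher and 11 lower (33.8% and 33.4%, 67.3% in all). The JNKKO split was 11 and 6 on log2(TPM + 1), where 7751 of all 16911 genes were higher and 3625 lower.

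**Figure D2:**
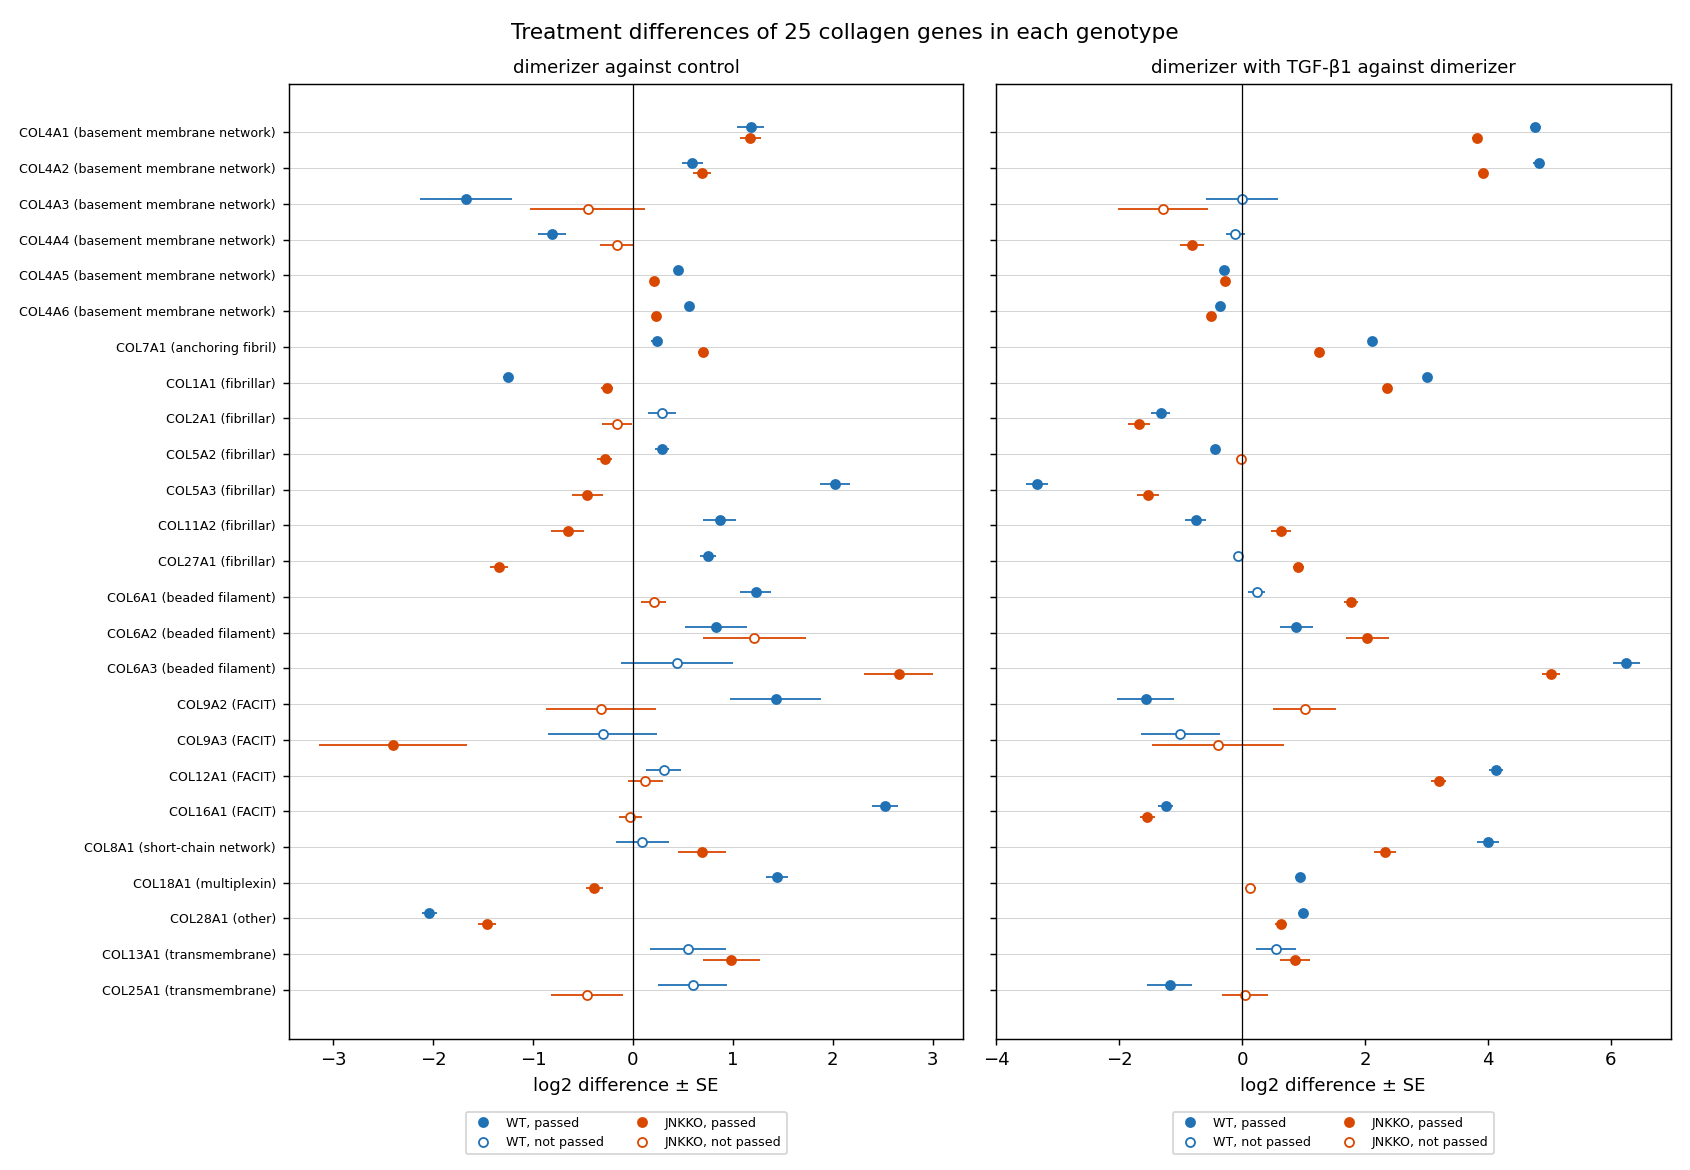
Log2 differences ± SE (x axis) of the 25 tested collagen genes (y axis, with class), for dimerizer against control (left) and dimerizer with TGF-β1 against dimerizer (right), in WT (blue) and JNKKO (orange). Filled points passed the test and open points did not. COL6A3, COL4A1, COL4A2 and COL12A1 lie farthest right with TGF-β1, and COL5A3 and COL27A1 lie on opposite sides of 0 with the dimerizer.

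COL4A1 and COL4A2 encode the chains that make the common type IV network. COL4A1 (chr13:110148963-110307233, minus strand) measured 4.83, 4.42 and 4.53 CPM in WT control, 10.2, 11.7 and 9.35 under the dimerizer, and 257, 302 and 293 with TGF-β1. In JNKKO it was at 12.1, 10.3 and 10.5 CPM in control, 24.003, 24.2 and 26.2 in dimerizer, and 353, 318 and 380 with TGF-β1. No library of any treatment overlapped with another treatment within its genotype, and every JNKKO library lay above every WT library of the same treatment. The dimerizer raised COL4A1 by 1.18 ± 0.14 on the log2 scale (SE) in WT and by 1.18 ± 0.11 in JNKKO. TGF-β1 raised it by a further 4.77 ± 0.09 in WT, a 27.3-fold difference, and by 3.82 ± 0.08 in JNKKO, 14.1-fold.

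COL4A2 (chr13:110305812-110513209, plus strand) followed the same order. Its WT libraries were at 11.05, 10.4 and 12.3 CPM in control, 16.1, 17.3 and 17.5 in dimerizer, and 439, 499 and 505 with TGF-β1. The JNKKO libraries were at 23.1, 23.3 and 23.2, then 36.3, 33.9 and 42.0, then 582, 519 and 605 CPM. These groups did not overlap either. The TGF-β1 differences were 4.82 ± 0.09 in WT and 3.92 ± 0.08 in JNKKO, and the dimerizer differences were 0.60 ± 0.11 and 0.69 ± 0.09. In TPM, COL4A1 stood at 0.400 ± 0.0335 of COL4A2 (SD, n = 3) in WT control and 0.458 ± 0.0484 in JNKKO control. The ratio was 0.596 ± 0.0722 and 0.643 ± 0.0465 with the dimerizer, and 0.568 ± 0.0122 and 0.594 ± 0.0115 with TGF-β1. The 2 gene models overlap by 1422 bases on opposite strands in GENCODE 29, and reads from the overlap are uncertain, since the strand setting of the counting is not stated in the labels.

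COL4A5 and COL4A6, whose chains form a separate type IV network typical of the basement membrane of breast and skin epithelium, were the most abundant type IV genes in control. COL4A5 (chrX:108439844-108697545, plus strand) measured 294, 287 and 287 CPM in WT control, 397, 388 and 400 under the dimerizer, and 333, 322 and 317 with TGF-β1. JNKKO values were 354, 340 and 340, then 399, 396 and 406, then 331, 332 and 333 CPM. The range over all 18 libraries was thus far narrower than that of COL4A1 or COL4A2. The dimerizer raised COL4A5 by 0.45 ± 0.03 in WT and 0.22 ± 0.03 in JNKKO, and it fell by 0.29 ± 0.03 and 0.27 ± 0.03 with TGF-β1. The JNKKO fall was not seen on a TPM scale, where the difference was -0.02 ± 0.03 (limma, adjusted p = 0.566).

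COL4A6 (chrX:108155607-108439497, minus strand) ran from 141 to 146 CPM in WT control, 212 to 215 under the dimerizer and 165 to 169 with TGF-β1. In JNKKO it ran from 192 to 208, from 230 to 244 and from 163 to 173 CPM. It rose by 0.57 ± 0.04 in WT and 0.24 ± 0.04 in JNKKO with the dimerizer and fell by 0.35 ± 0.04 and 0.50 ± 0.04 with TGF-β1. COL4A5 stood at 1.76 to 2.08 times COL4A6 in mean TPM ratio over the 6 groups. The mean ratio of COL4A1 to COL4A2 ran from 0.400 to 0.643, so a limited range of ratios was not particular to COL4A5 and COL4A6. The levels of COL4A1 and COL4A2 changed far more. WT dimerizer with TGF-β1 stood at 61.8-fold of WT control for COL4A1 and 42.8-fold for COL4A2.

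COL4A4 and COL4A3, the chains of the network of kidney glomerulus and lung, had the lowest TPM of the type IV genes in every group. COL4A3 was near the lower limit of the data, with 144 counts over all 18 libraries, while COL4A4 had 1418. COL4A4 (chr2:227002711-227164453, minus strand) measured 4.41, 5.42 and 5.47 CPM in WT control, 2.82, 2.74 and 3.15 under the dimerizer, and 2.84, 2.72 and 2.53 with TGF-β1. In JNKKO it was at 2.18, 1.55 and 2.15, then 1.67, 1.82 and 1.77, then 0.911, 1.07 and 1.01 CPM. WT control was thus the highest group, without overlap with any other. COL4A4 fell by 0.81 ± 0.14 with the dimerizer in WT, and in JNKKO the difference was -0.16 ± 0.17 (adjusted p = 0.505, edgeR). COL4A3 was at 0.871 CPM or less in every library, with a mean of 0.672 CPM in WT control and 0.204 under the dimerizer.

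**Figure D3:**
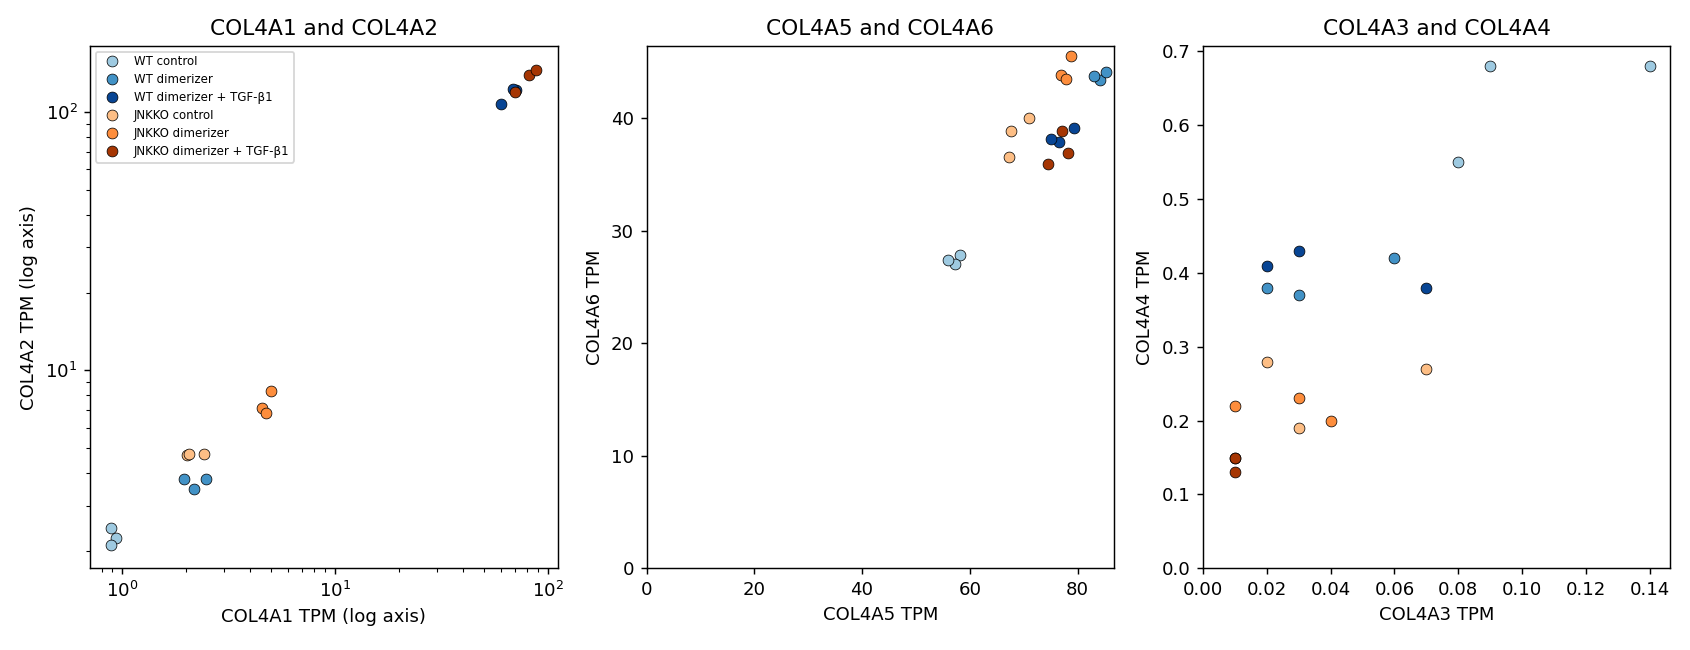
TPM of the 2 genes of each head-to-head type IV pair in each of the 18 libraries (1 point per library, coloured by group), on log axes for COL4A1 and COL4A2 and linear axes from 0 for the others. COL4A1 and COL4A2 climb together along a line, COL4A5 and COL4A6 move within a narrow range above WT control, and COL4A3 and COL4A4 are highest in WT control.

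COL7A1 (chr3:48564073-48595267, minus strand), the anchoring fibril collagen, had the highest TPM of the family in both groups given TGF-β1 and in JNKKO dimerizer, and in control stood beside COL4A5, at 56.9 against 57.1 TPM in WT and 68.2 against 68.7 in JNKKO. In CPM it measured 430, 397 and 435 CPM in WT control, 469, 498 and 521 under the dimerizer, and 2020, 2147 and 2289 with TGF-β1. The JNKKO libraries were at 503, 501 and 501, then 856, 740 and 852, then 1978, 1930 and 1923 CPM. Each treatment stood apart from the next within a genotype. The dimerizer difference was 0.24 ± 0.05 in WT and 0.70 ± 0.05 in JNKKO, and the TGF-β1 difference was 2.12 ± 0.05 in WT, 4.34-fold, and 1.25 ± 0.05 in JNKKO, 2.38-fold. In the dimerizer groups JNKKO was higher by 0.72 ± 0.05. With TGF-β1 JNKKO was lower by only 0.15 ± 0.05 (adjusted p = 0.0241, edgeR). That last call was lost when replicate 3 of the WT group, whose labels conflict, was left out (-0.08, adjusted p = 0.241). It was also lost without replicate 2 of the WT group or without replicate 2 or replicate 3 of the JNKKO group.

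COL1A1 (chr17:50183289-50201632, minus strand) was the only fibrillar member above 10 TPM. Its libraries were at 90.8, 96.7 and 97.8 CPM in WT control, 41.3, 39.1 and 39.7 under the dimerizer, and 310, 319 and 339 with TGF-β1. In JNKKO they were at 45.1, 45.0 and 46.7, then 41.3, 34.1 and 39.2, then 203, 192 and 189 CPM. COL1A1 was therefore low in 3 groups, WT dimerizer and the JNKKO groups without TGF-β1, and higher in WT control than in any of them. It fell by 1.25 ± 0.05 with the dimerizer in WT and by 0.26 ± 0.06 in JNKKO. With TGF-β1 it rose by 3.01 ± 0.05 in WT, 8.06-fold, and by 2.35 ± 0.05 in JNKKO, 5.11-fold.

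The minor fibrillar chains moved otherwise. COL5A3 (chr19:9959561-10010471, minus strand), a type V chain, measured 2.06, 2.94 and 2.48 CPM in WT control, 9.66, 9.71 and 11.01 under the dimerizer, and 1.30, 1.06 and 0.648 with TGF-β1. In JNKKO it was at 5.99, 5.08 and 7.43, then 4.87, 4.50 and 4.15, then 1.30, 1.58 and 1.80 CPM. WT dimerizer was the highest group of the 6. COL5A3 rose by 2.02 ± 0.15 with the dimerizer in WT and fell by 0.45 ± 0.15 in JNKKO, and with TGF-β1 it fell by 3.33 ± 0.18 and 1.53 ± 0.18. The small JNKKO fall with the dimerizer was lost without replicate 3 of JNKKO control (-0.30, adjusted p = 0.157) and without replicate 3 of JNKKO dimerizer (-0.40, adjusted p = 0.0768).

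COL27A1 (chr9:114155560-114312511, plus strand), a fibrillar collagen known from cartilage, ran from 9.97 to 11.3 CPM in WT control and from 16.9 to 18.6 under the dimerizer. In JNKKO it ran from 12.7 to 14.4 CPM in control and from 4.99 to 5.40 in dimerizer. JNKKO dimerizer was the lowest group and WT dimerizer the highest. It rose by 0.75 ± 0.08 in WT and fell by 1.34 ± 0.09 in JNKKO. With TGF-β1 it was at 16.2 to 17.7 CPM in WT, a difference of -0.07 ± 0.07 that did not pass, and at 8.99 to 10.4 CPM in JNKKO, where it rose by 0.92 ± 0.09.

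COL5A2, the other tested type V chain, rose by 0.29 ± 0.07 with the dimerizer in WT, from a mean of 20.3 to 24.8 CPM, and fell by 0.28 ± 0.07 in JNKKO, from 20.6 to 16.9 CPM. COL11A2, a type XI chain, rose by 0.87 ± 0.17 in WT and fell by 0.65 ± 0.17 in JNKKO, at 3.41 CPM or less in every library. COL2A1, the main collagen of cartilage, was at 4.60 to 6.63 CPM in the 12 libraries without TGF-β1 and at 1.44 to 3.45 in the 6 with it. It fell by 1.32 ± 0.16 in WT and 1.68 ± 0.18 in JNKKO with TGF-β1. Counted as a class, the 6 tested fibrillar genes gave 4 rises and 1 fall with the dimerizer in WT, where 30.3% of all genes rose and 25.6% fell. In JNKKO they gave 5 falls and no rise (17.9% and 22.5% of all genes). COL2A1 did not pass there, and the COL5A3 fall is the one lost without either of the 2 libraries named above, on log2(TPM + 0.1) and with the TPM filter.

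COL6A1, COL6A2 and COL6A3 encode the chains that assemble together into type VI collagen, and their levels differed widely. COL6A1 (chr21:45981737-46005050, plus strand) measured 14.7, 9.17 and 11.95 CPM in WT control, 25.9, 29.4 and 28.6 under the dimerizer, and 29.3, 32.8 and 37.0 with TGF-β1. JNKKO libraries were at 58.7, 55.8 and 55.1, then 70.5, 54.3 and 71.3, then 231, 222 and 216 CPM. Each JNKKO library exceeded all 9 WT libraries. JNKKO was higher by 2.24 ± 0.15 in control, 1.22 ± 0.13 in dimerizer and 2.75 ± 0.13 with TGF-β1, 6.75-fold. TGF-β1 raised COL6A1 by 1.77 ± 0.12 in JNKKO, and in WT the difference was 0.24 ± 0.14 (adjusted p = 0.144, edgeR), with groups that overlapped.

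COL6A3 (chr2:237324003-237414375, minus strand) was at 0.254 to 0.764 CPM in the 6 WT libraries without TGF-β1 and at 36.6, 53.5 and 53.3 CPM with it. In JNKKO it was at 0.704, 0.600 and 0.805 CPM in control, 4.53, 4.31 and 4.51 in dimerizer, and 151, 135 and 150 with TGF-β1. A rise with the dimerizer passed the test in JNKKO (2.66 ± 0.34, 6.31-fold), and the WT difference was 0.44 ± 0.56. TGF-β1 raised COL6A3 by 6.26 ± 0.22 in WT and 5.03 ± 0.15 in JNKKO, and JNKKO was higher by 1.61 ± 0.11 with TGF-β1. COL6A2 (chr21:46098097-46132849, plus strand) went the other way between genotypes. Its mean was 0.971, 1.73 and 3.20 CPM over the WT treatments and 0.209, 0.502 and 2.00 CPM over the JNKKO treatments. It was lower in JNKKO control by 2.22 ± 0.45 and in JNKKO dimerizer by 1.83 ± 0.35. With TGF-β1 the difference of -0.68 ± 0.27 (adjusted p = 0.0385, edgeR) was lost when any of these 6 libraries other than WT replicate 1 was left out. Without WT replicate 3, whose labels conflict, it was -0.41 (adjusted p = 0.260), and the WT rise with TGF-β1 went from 0.88 to 0.62 (adjusted p = 0.0641). In mean TPM ratio, COL6A2 stood at 0.0773 to 0.117 of COL6A1 in the WT groups and at 0.00436 to 0.0113 in the JNKKO groups, and the libraries of the genotypes did not overlap in this ratio.

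COL16A1 (chr1:31652247-31704319, minus strand), a FACIT collagen found near basement membranes, measured 46.7, 42.2 and 46.3 CPM in WT control and 252, 251 and 276 under the dimerizer. JNKKO libraries were at 239, 232 and 241 CPM in control and 231, 224 and 244 in dimerizer. WT control was the low group, and the other 3 groups lay within 224 to 276 CPM. The dimerizer raised COL16A1 by 2.53 ± 0.13 in WT, 5.76-fold, and in JNKKO the difference was -0.02 ± 0.12 (adjusted p = 0.897, edgeR). JNKKO control exceeded WT control by 2.40 ± 0.13, 5.26-fold. With TGF-β1 the libraries were at 141, 92.2 and 96.0 CPM in WT and 82.4, 80.4 and 77.1 in JNKKO, and COL16A1 fell by 1.24 ± 0.12 and 1.54 ± 0.13. Replicate 1 of the WT group stood above the other two. Without it COL16A1 fell by 1.46 in WT, and JNKKO was lower with TGF-β1 by 0.23 instead of 0.46. That JNKKO difference did not pass when only these 2 groups were fitted (adjusted p = 0.126, edgeR). An antisense gene, AC114488.2, overlaps COL16A1 over 7916 bases, so part of these counts is uncertain.

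COL12A1 (chr6:75084326-75206051, minus strand), a FACIT collagen of tissues under tension, was at 2.42 to 4.50 CPM in all 12 libraries without TGF-β1. With TGF-β1 it was at 72.0, 62.1 and 55.4 CPM in WT and 32.5, 35.7 and 38.7 in JNKKO. It rose by 4.13 ± 0.12 in WT, 17.6-fold, and by 3.20 ± 0.13 in JNKKO, 9.19-fold, and neither dimerizer difference passed. COL8A1 (chr3:99638475-99799226, plus strand), a short-chain collagen of the vessel wall and cornea, showed the same order. It was at 1.41 to 4.25 CPM without TGF-β1, at 31.0, 27.0 and 26.9 with it in WT, and at 14.7, 14.8 and 18.02 in JNKKO. The rises were 3.9965 ± 0.18 and 2.32 ± 0.18. Its small rise with the dimerizer in JNKKO (0.69 ± 0.24, adjusted p = 0.0289, edgeR, groups overlapping) was lost without JNKKO control replicate 2 or replicate 3 and without JNKKO dimerizer replicate 1 or replicate 3.

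COL18A1 (chr21:45405137-45513720, plus strand), the basement membrane collagen from which endostatin is cut, measured 4.32, 3.36 and 3.56 CPM in WT control, 9.66, 10.8 and 10.1 under the dimerizer, and 17.3, 19.99 and 21.6 with TGF-β1. In JNKKO it was at 18.8, 17.4 and 19.2, then 14.5, 12.9 and 15.1, then 16.8, 14.3 and 15.5 CPM. The WT treatments thus climbed in separate steps to the level JNKKO had in control. The dimerizer raised it by 1.44 ± 0.11 in WT and lowered it by 0.39 ± 0.09 in JNKKO. SLC19A1 overlaps its gene model by 20149 bases on the opposite strand, which leaves these counts uncertain too.

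COL28A1 (chr7:7356203-7535853, minus strand), a minor collagen described in peripheral nerve, measured 38.8, 32.9 and 34.0 CPM in WT control, 8.50, 8.43 and 8.82 under the dimerizer, and 17.9, 16.9 and 16.5 with TGF-β1. JNKKO libraries were at 14.0, 14.9 and 14.8, then 6.11, 4.63 and 5.28, then 8.13, 8.79 and 7.73 CPM. Every JNKKO group was below the WT group of the same treatment. COL28A1 fell by 2.04 ± 0.08 with the dimerizer in WT and 1.46 ± 0.09 in JNKKO, and it rose by 0.99 ± 0.08 and 0.64 ± 0.10 with TGF-β1. The transmembrane collagen COL13A1 was at 0.201 to 0.663 CPM in WT and 0.498 to 2.63 CPM in JNKKO, and higher in JNKKO with TGF-β1 by 2.04 ± 0.27. Its control difference of 1.30 was lost without JNKKO control replicate 1 (0.92, adjusted p = 0.0588, edgeR). COL9A2, COL9A3 and COL25A1 were at 0.674 CPM or less in every library.

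**Figure D4:**
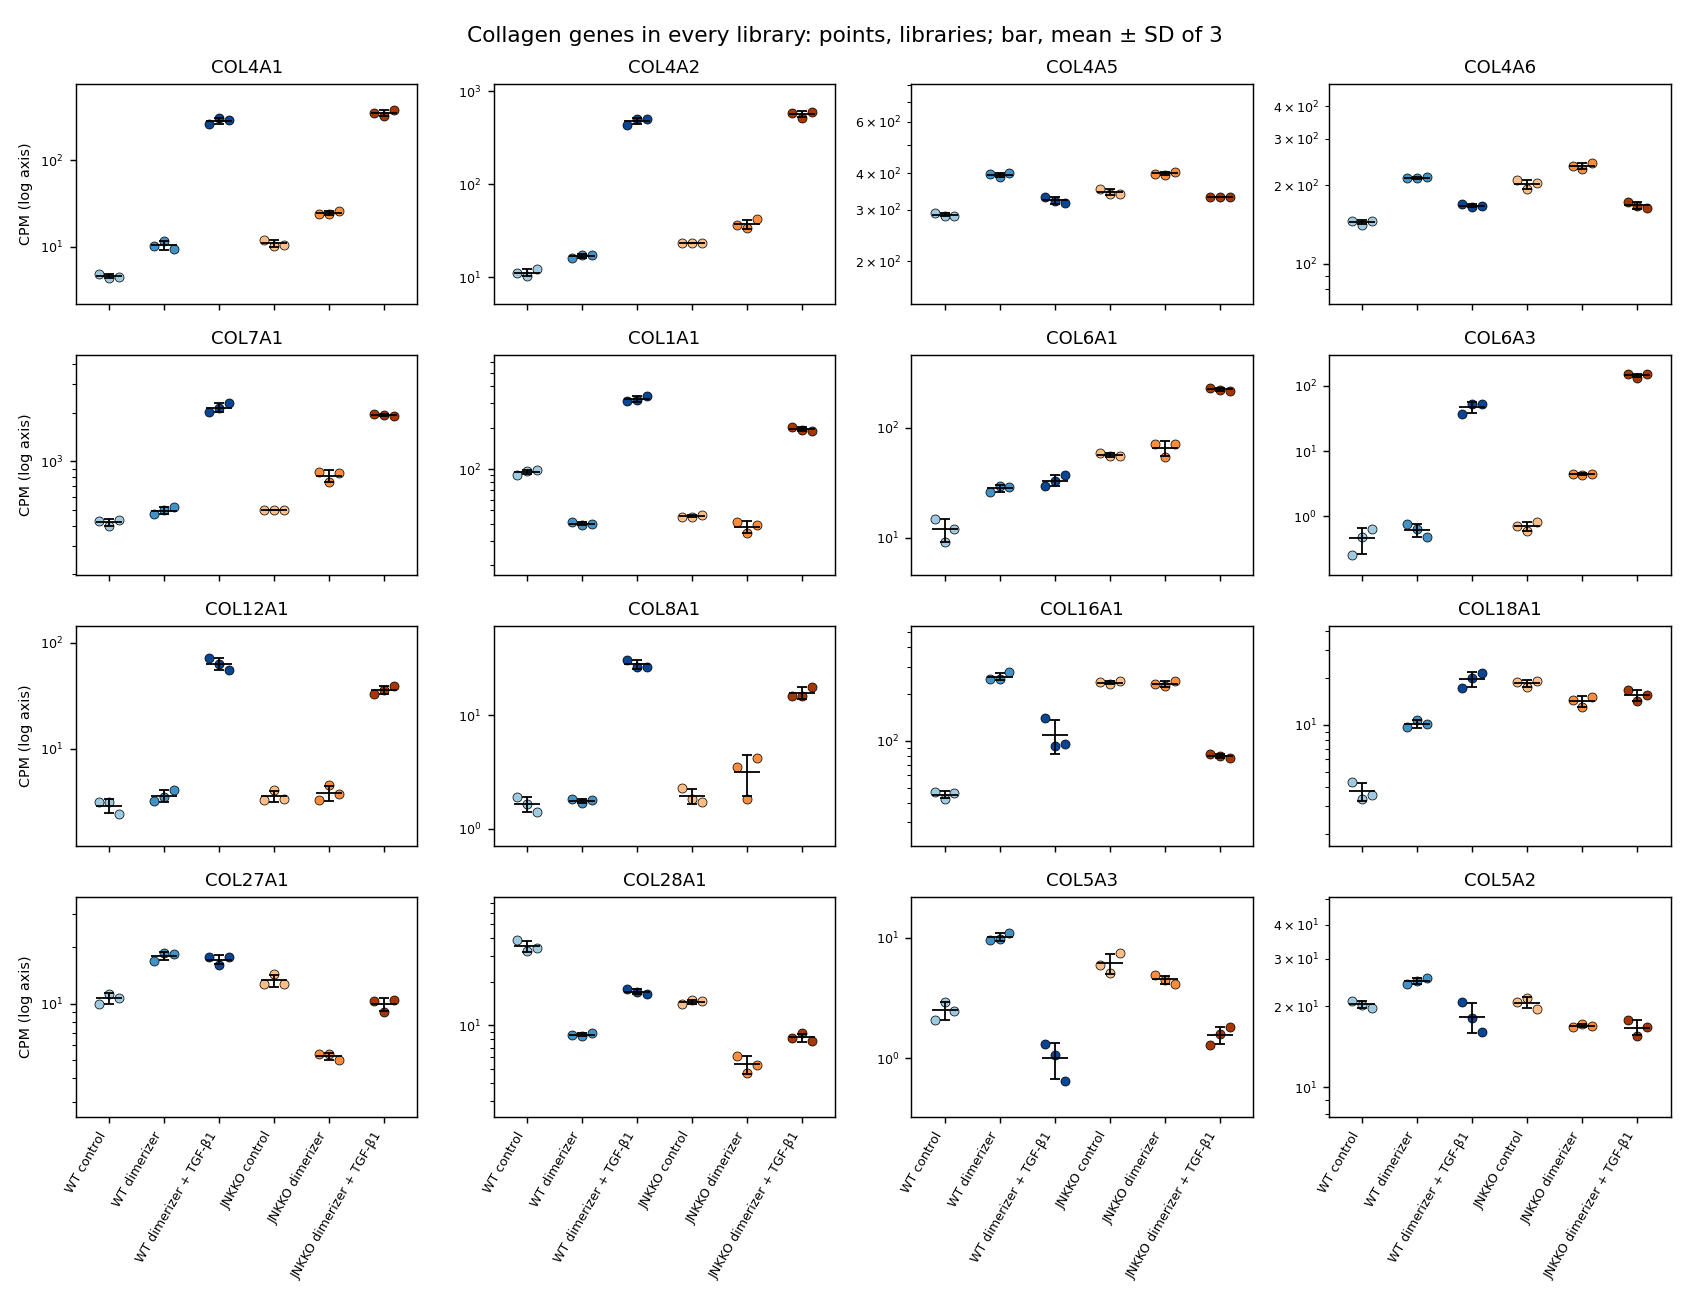
CPM (log axis) of 16 collagen genes in each library, by group. Points are libraries and bars the mean ± SD of 3. COL16A1 and COL18A1 are lowest in WT control, COL28A1 is highest there, and COL4A1, COL4A2, COL6A3, COL12A1 and COL8A1 are highest in the 2 groups given TGF-β1.

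JNKKO against WT asks which collagens differ between the genotypes at a fixed treatment. In control, 12 of the 25 tested members were higher in JNKKO and 5 lower, against 25.8% and 23.5% of all genes, 49.3% in all. In the dimerizer groups the split was 9 and 9 (21.6% and 18.5% of all genes, 40.1% in all), or 7 and 11 on log2(TPM + 1). On that scale 1773 of all 16911 genes were higher and 5425 lower. With TGF-β1 it was 7 and 11 (26.5% and 26.4%, 52.9% in all). One of the 7, COL5A3 at 0.63, was lost without replicate 3 of WT dimerizer with TGF-β1 (0.41, adjusted p = 0.145, edgeR) and without JNKKO replicate 2 or replicate 3. COL4A1, COL6A1 and COL13A1 were higher in JNKKO in all 3 treatments, as was COL4A2, and COL4A4, COL6A2 and COL28A1 were lower in all 3. The COL4A1 difference was 1.26 ± 0.14 in control, 1.25 ± 0.10 in dimerizer and 0.30 ± 0.07 with TGF-β1, and that of COL4A2 was 1.05 ± 0.10, 1.14 ± 0.09 and 0.24 ± 0.07. The last was lost with limma on log2(TPM + 0.1), at 0.20 (adjusted p = 0.0634). The 3 type IV genes COL4A5, COL4A6 and COL4A3 did not pass with TGF-β1. COL1A1 was lower in JNKKO by 1.06 ± 0.05 in control and 0.73 ± 0.05 with TGF-β1, while the dimerizer difference of -0.07 ± 0.06 did not pass.

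**Figure D5:**
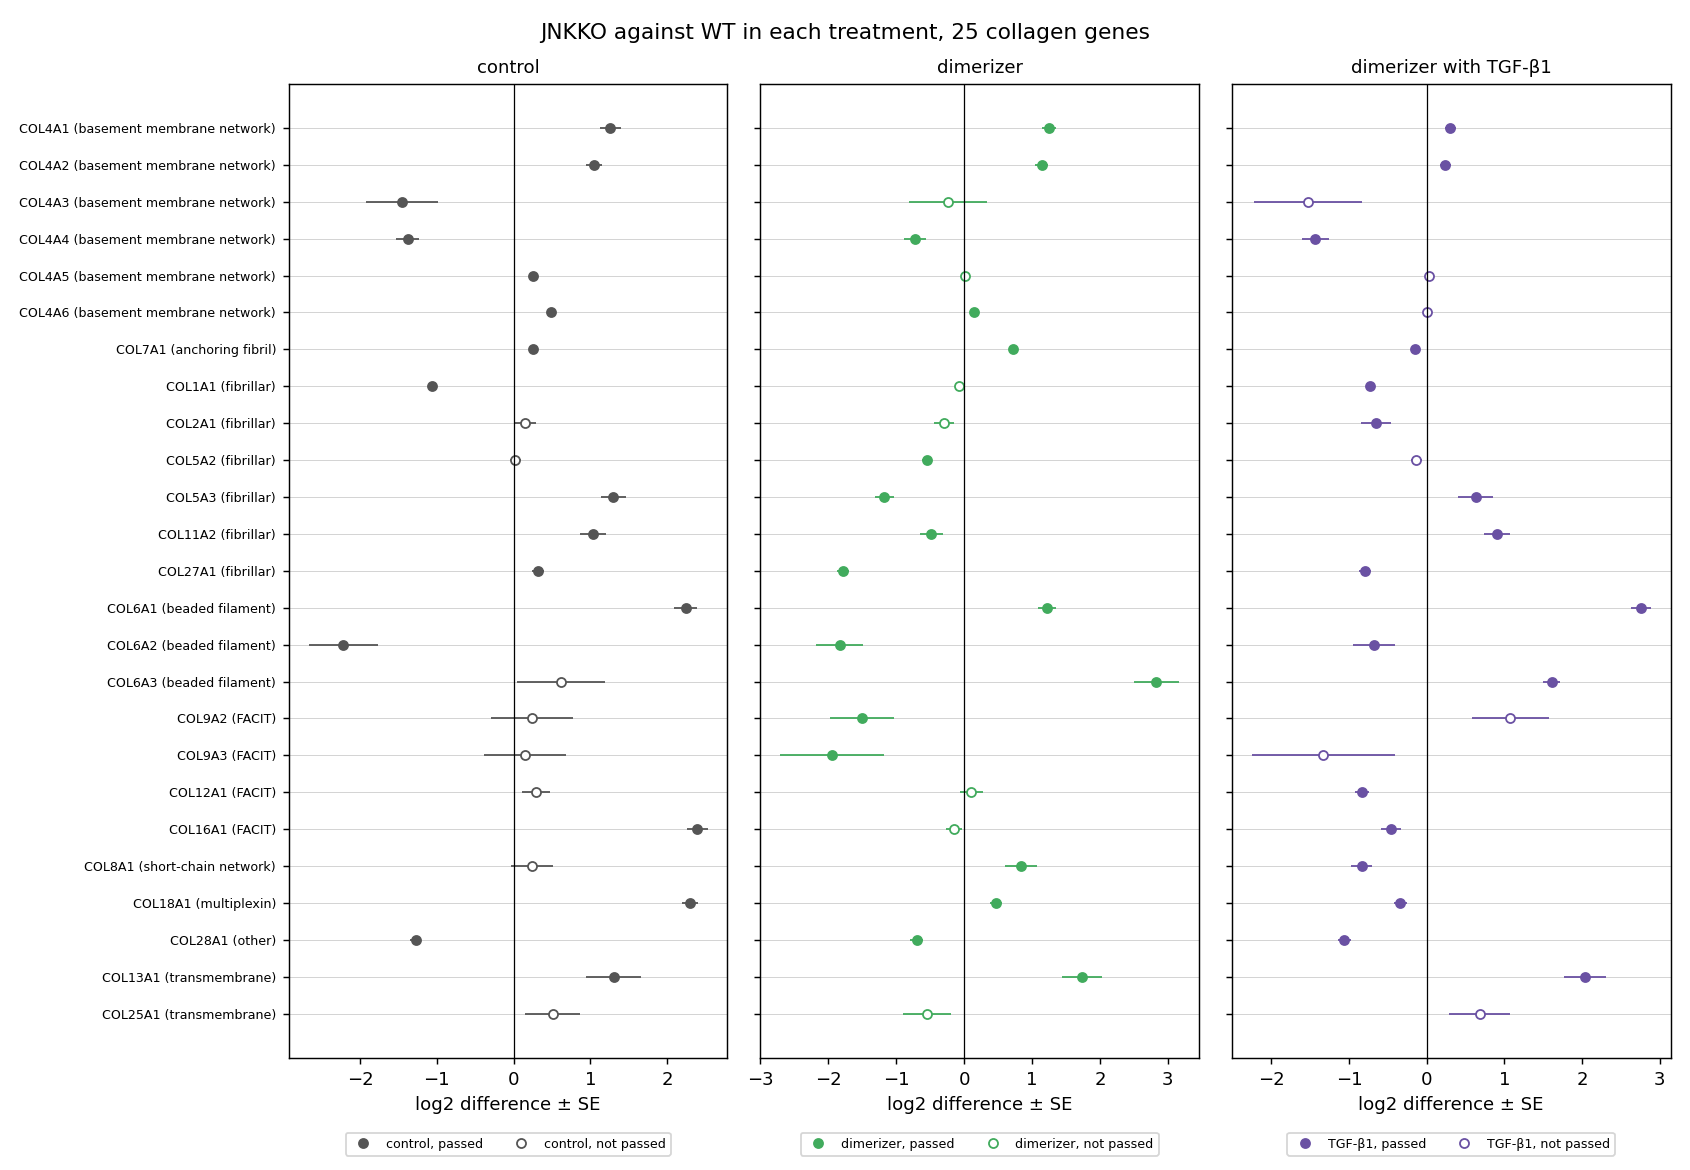
Log2 differences ± SE (x axis), JNKKO minus WT, of the 25 tested collagen genes (y axis, with class) in control, in dimerizer and in dimerizer with TGF-β1. Filled points passed the test. COL16A1 and COL18A1 are far right in control and near or left of 0 with TGF-β1, and COL6A1 is right of 0 throughout.

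Whether a treatment acted differently in the genotypes was tested directly as an interaction, the JNKKO difference minus the WT difference. For the dimerizer, 5 collagen genes had a higher difference in JNKKO and 9 a lower one, against 21.4% and 21.2% of all genes, 42.6% in all. Among the lower were COL16A1 at -2.55 ± 0.18, COL5A3 at -2.48 ± 0.22, COL27A1 at -2.10 ± 0.12 and COL18A1 at -1.83 ± 0.14, with adjusted p-values of 8.28e-08, 2.86e-10, 2.42e-14 and 1.88e-11 (edgeR). COL1A1, at 0.99 ± 0.08, was the clearest of the higher ones. COL4A1 and COL4A2 did not pass, at -0.0039 ± 0.16 and 0.09 ± 0.14. For TGF-β1, 6 were higher and 11 lower (14.1% and 18.8% of all genes, 32.9% in all), or 8 and 8 on log2(TPM + 1). On that scale 3332 of all 16911 genes were higher and 1958 lower. COL4A1 at -0.95 ± 0.12, COL4A2 at -0.90 ± 0.11, COL7A1 at -0.86 ± 0.07, COL12A1 at -0.93 ± 0.19 and COL8A1 at -1.67 ± 0.27 had smaller rises in JNKKO. COL6A1 at 1.54 ± 0.18 and COL27A1 at 0.98 ± 0.12 went the other way, with a rise that passed only in JNKKO. COL5A3, at 1.80 ± 0.27, fell in both genotypes and fell less in JNKKO. COL6A3 was at -1.22 ± 0.38, but at 0.90 on log2(TPM + 1), a reversal, and at -0.34 on log2(TPM + 0.1), where it did not pass. These interactions share the dimerizer libraries, so they are not independent of each other.

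Genes that make, bind or cut collagen were listed by role, with earlier results of these data known. Of 29 tested genes for collagen synthesis, processing and crosslinking, 17 rose and 7 fell with TGF-β1 in WT, where 33.4% of all genes rose and 31.8% fell. In JNKKO 20 rose and 4 fell, against 30.5% and 30.3% of all genes. Their median log2 difference was 0.41 in WT and 0.83 in JNKKO, beside 0.00 and -0.01 over all genes. The genes named next are among those that rose, and none of the 7 in WT or 4 in JNKKO that fell is named. Their levels are not given, so a large log2 difference may start from few counts. LOX, which crosslinks collagen chains, rose by 2.23 in WT and 3.25 in JNKKO, and PLOD2, a lysyl hydroxylase, by 1.44 and 2.07. P4HA3, a prolyl hydroxylase subunit, rose by 6.70 in WT and 3.81 in JNKKO. P3H3, a prolyl 3-hydroxylase, rose by 2.70 in JNKKO, and its WT difference of 0.21 did not pass. With the dimerizer, 15 of these genes rose and 4 fell in WT (30.3% and 25.6% of all genes), and 19 rose and 1 fell in JNKKO (22.5% and 17.9%). JNKKO was higher for 13 and lower for 4 in control (25.8% and 23.5% of all genes), higher for 16 and lower for 3 in dimerizer (21.6% and 18.5%), and higher for 20 and lower for 3 with TGF-β1 (26.5% and 26.4%).

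Of 8 tested collagen receptors and uptake genes, 5 rose and 1 fell with TGF-β1 in WT, where 33.4% of all genes rose and 31.8% fell, 65.2% in all. In JNKKO 4 rose and 1 fell, against 30.5% and 30.3% of all genes, 60.7% in all. The totals in either direction thus lay near the background, with more rises than falls. The median log2 difference of the list was 0.59 in WT and 0.25 in JNKKO, beside 0.00 and -0.01 over all genes. ITGA1, a collagen-binding integrin chain, rose by 1.55 and 1.45, and MRC2, an endocytic collagen receptor, by 2.11 and 2.74. DDR1, a receptor tyrosine kinase for collagen, fell by 0.09 in WT and 0.62 in JNKKO. Of 7 tested collagen-cleaving proteases, 5 rose and 1 fell with TGF-β1 in WT (33.4% and 31.8% of all genes), and 6 rose and none fell in JNKKO (30.5% and 30.3%). MMP2, a gelatinase, rose by 5.86 in WT and 6.11 in JNKKO, and MMP14, which activates it, by 1.12 and 1.03. These are among the proteases that rose, and the value of the 1 that fell in WT is not given. Levels of the genes in these lists are not given either. MMP1, an interstitial collagenase, rose by 2.91 with the dimerizer in JNKKO, and its WT difference of -1.08 did not pass.

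Marker genes of cell types known for making collagen were summed per library. The 8 fibroblast markers summed to 11.9 to 24.02 TPM in the 12 libraries without TGF-β1, to 164 to 208 in WT with it and to 115 to 144 in JNKKO with it, and so moved with the collagens that TGF-β1 raised. DCN and FAP made up nearly all of it, at means of 90.3 and 90.7 TPM in WT and 52.1 and 68.1 in JNKKO with TGF-β1. Of the 8, 1 reached a mean of 1 TPM in each group without TGF-β1, 2 in WT with it and 3 in JNKKO with it. PDGFRA and DPT were at 0 in all WT control libraries, PDGFRA and TCF21 in all JNKKO control libraries, and TCF21 in all libraries of WT dimerizer with TGF-β1. The epithelial sum was 4902 to 9999.9 TPM over all libraries. It was lowest in JNKKO dimerizer with TGF-β1 and highest in WT dimerizer with TGF-β1, at 8422 TPM or more. KRT5 and KRT17 made up most of it, at means of 3117 and 4566 TPM in that WT group and 2029 and 1391 in that JNKKO group. The markers did not move together in that JNKKO group, where CDH1, KRT5 and TP63 had their lowest mean and ITGB4, KRT14 and KRT18 their highest. The 4 endothelial markers summed to no more than 9.71 TPM and the 5 chondrocyte markers to no more than 5.67. The 5 immune markers also moved with TGF-β1. They summed to 6.15 to 7.14 TPM in WT dimerizer and 21.3 to 24.7 with TGF-β1, and to 10.1 to 11.9 and 23.2 to 25.2 TPM in JNKKO. CSF1R, a macrophage receptor, made up most of it, at means of 21.1 TPM in WT and 23.4 in JNKKO with TGF-β1, while CD3E was at 0 in all 6 of those libraries. The part of other cell types in the collagen differences was not tested.

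Likeness of pattern was described by Pearson correlation of log2 CPM over the 18 libraries, which share 6 groups and are not independent. COL4A2 was most like COL4A1 (0.995), COL7A1 (0.988) and COL6A3 (0.978). COL1A1 was most like COL12A1 (0.895), COL8A1 (0.873) and COL4A2 (0.817). COL16A1 was most like COL4A6 (0.935), COL4A5 (0.888) and COL5A3 (0.700). Within the other head-to-head pairs, COL4A5 and COL4A6 had a correlation of 0.954 and COL4A3 and COL4A4 of 0.777.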

How the data were processed

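Per the labels' protocols, RNA of acini on Matrigel was selected with oligo(dT), depleted of ribosomal RNA and sequenced as 150 base pairs from both ends. Per the submitters' processing notes, the tools were cutadapt and RSEM on hg38. Their versions, annotation and strand setting are not given in these sources. The authors deposited 2 tables of 18 libraries, one of RSEM expected counts (estimated read numbers per gene, not always whole) and one of TPM, which corrects for length and sums to the same total in each library. RSEM shares reads that fit several genes, so counts of overlapping or related genes are uncertain.

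Expected counts were rounded to whole numbers. Genes were filtered with filterByExpr, libraries scaled with TMM, and 11 comparisons (9 between groups, 2 interactions) tested with edgeR 4.0.16 (quasi-likelihood F test, robust, 1 mean per group, all 18 libraries) in R 4.3.3. The Benjamini-Hochberg adjustment covered all 16911 genes, with a threshold of 0.05, and SEs were taken as log2 differences over the root of F. The edgeR step was tested on simulated counts of well-counted genes, for WT dimerizer against control only and with few genes changed. Low counts, widespread change, interactions and the alternatives were not simulated. CPM used TMM-scaled totals. Alternatives were DESeq2 1.42.0, RLE factors, no filter, fits of only the groups compared, a replicate block, limma 3.58.1 on log2(TPM + 1) and log2(TPM + 0.1), a TPM filter, mitochondrial genes left out, and each library left out. No pair of libraries of a group agreed within counting noise (chi-square per gene 2.28 to 12.1), so none was averaged as 1 library deposited again. This does not show that they came from separate cultures. Per-library values are given for members of the highest TPM and, in each comparison, for the largest called rises and falls at 5 CPM or more and the interactions of smallest p, and further members are named where a class is described. The members and gene lists were chosen with earlier results of these data known. Gene positions are those of GENCODE 29 (GRCh38), which may not be the annotation the authors used. Promoter windows are from RefSeq (GRCh38.p14). Tables and figures used Python 3.11.15, pandas 2.3.3, numpy 2.4.6 and matplotlib 3.10.9.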

Additional observations from a re-analysis of the deposited data

Results flagged for a closer look

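The effect of a treatment differed between the genotypes, by the interaction test of edgeR (adjusted p under 0.05), for the collagen genes below that reached 5 CPM. Values are the JNKKO log2 difference minus the WT log2 difference, with 3 libraries in each of the 4 groups. For dimerizer against control, the genes with a higher difference in JNKKO were COL1A1 at 0.99, COL4A4 at 0.65, COL28A1 at 0.58 and COL7A1 at 0.46. COL1A1, COL4A4 and COL28A1 fell less in JNKKO than in WT or did not pass there, and COL7A1 rose more. The genes with a lower difference were COL16A1 at -2.55, COL5A3 at -2.48, COL27A1 at -2.10, COL18A1 at -1.83, COL6A1 at -1.02, COL5A2 at -0.57, COL4A6 at -0.33 and COL4A5 at -0.23. The COL4A4 difference was lost with DESeq2 (adjusted p = 0.0547), with limma on log2(TPM + 0.1) (0.46, adjusted p = 0.104) and without JNKKO control replicate 2 (0.51, adjusted p = 0.0752).

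For dimerizer with TGF-β1 against dimerizer, the genes with a higher difference in JNKKO were COL5A3 at 1.80, COL6A1 at 1.54, COL27A1 at 0.98 and COL5A2 at 0.42. Those with a lower one were COL8A1 at -1.67, COL6A3 at -1.22, COL4A1 at -0.95, COL12A1 at -0.93, COL4A2 at -0.90, COL7A1 at -0.86, COL18A1 at -0.81, COL1A1 at -0.66, COL28A1 at -0.36 and COL4A6 at -0.15. COL4A6 lost its call under 11 settings, among them without WT dimerizer with TGF-β1 replicate 3, whose labels conflict (-0.13, adjusted p = 0.0776). COL28A1 lost its call under 10, with the smallest value without JNKKO dimerizer replicate 1 (-0.26, adjusted p = 0.138). COL6A3 reversed on log2(TPM + 1), but stayed negative on log2(TPM + 0.1), at -0.34 (limma, adjusted p = 0.304). It lost its call when only the groups compared were fitted (adjusted p = 0.0689, edgeR). Its call was also lost without WT dimerizer replicate 2 (adjusted p = 0.0615, edgeR) or replicate 3 (adjusted p = 0.0944, edgeR). The JNKKO dimerizer libraries of COL6A3 already stood above the WT ones.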

How the results depend on the processing

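Of 147 member results that passed the test at 5 CPM or more, 133 kept direction and call under all of 9 alternatives and 18 left-out libraries that could be fitted, as did 28 of 50 at lower levels. Scaling by RLE factors lost no call, and 1 result reversed, the COL6A3 interaction with TGF-β1, at 0.90 on log2(TPM + 1) with or without the TPM filter. With limma on log2(TPM + 1) and the TPM filter, 19 members were tested. Those called lower then numbered 2 instead of 4 for WT dimerizer against control, 5 instead of 8 for JNKKO dimerizer against control, 3 instead of 5 for WT dimerizer with TGF-β1 against control, 4 instead of 11 for the same in JNKKO, and 3 instead of 5 for JNKKO against WT control. Of all 14904 genes tested in that setting, those lower numbered 2614, 3045, 2110, 3165 and 3369 in the same order. The main fit had 4326, 3026, 5152, 5656 and 3976 of 16911. JNKKO dimerizer with TGF-β1 against control had 6 lower with either TPM pseudocount and all 25 members. Of all genes, 3625 were lower there on log2(TPM + 1) and 3667 on log2(TPM + 0.1). The TGF-β1 interaction had 7 lower instead of 11 on log2(TPM + 0.1), where 1872 of all genes were lower. The cause was not tested beyond the smaller number of members. Over left-out libraries the counts of members higher and lower ran from 13 to 14 and 4 to 4 (WT dimerizer against control), 6 to 10 and 7 to 8 (the same in JNKKO), 10 to 11 and 9 to 9 (TGF-β1 against dimerizer in WT), 13 to 14 and 6 to 6 (in JNKKO), 16 to 16 and 5 to 7 (TGF-β1 against control in WT) and 10 to 11 and 9 to 11 (in JNKKO). For JNKKO against WT they ran from 11 to 12 and 4 to 5 in control, 8 to 9 and 6 to 10 in dimerizer, and 6 to 8 and 9 to 10 with TGF-β1. For the interactions they ran from 4 to 6 and 9 to 11 with the dimerizer and 6 to 7 and 7 to 11 with TGF-β1, where the count of 7 came without WT dimerizer replicate 2.

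Libraries with the same replicate number did not deviate together (45 pairs, r from -0.0624 to 0.0767, none over 0.1, and 8 of 18 libraries closest to their own number), so the numbers were not used as pairs. With the replicate block all 197 member results kept their call, and the count of members lower in the dimerizer interaction was 10 instead of 9.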
